A study of Mus musculus with 2 samples.

Results

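The high mobility group (HMG) chromatin protein genes were taken as 8 named genes, Hmga1, Hmga2, Hmgb1, Hmgb2, Hmgb3, Hmgn1, Hmgn2 and Hmgn3, read by every probe set whose platform annotation gives 1 of these symbols and no other. This rule found 12 probe sets for 5 of the 8 genes, among 20380 probe sets for 12393 genes in all. Hmga2 had 3 probe sets, Hmgb2 had 2, Hmgb3 had 1, Hmgn1 had 4 and Hmgn3 had 2. Hmga1 is not named by any probe set in the annotation used here. Hmgb1 appears on 5 probe sets and Hmgn2 on 1, always together with predicted or other genes, so these 6 probe sets were not read for either gene. The genes were chosen by family name with the ratios between these same arrays already known, so every ratio below describes the members and tests nothing.

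The 2 Affymetrix arrays held RNA from NIH 3T3 cells, an established line of mouse embryonic fibroblasts. One culture was transfected by Lipofectamine with a plasmid for ATCE1-C-del, a C-terminally shortened and nuclear form of ATCE1, and the other with the empty vector. The vector is written pHA-CMV or pCMV-HA in the labels, which names the cytomegalovirus promoter, and RNA was taken at 48 hours in both groups. ATCE1 is a bZIP transcription factor of the CREB3 group, now called Creb3l4. The transfection was transient, and nothing used here states what share of the cells took up the plasmid. Each group is 1 array, so the values come without replicate error and differences between groups could not be tested.

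HMG proteins are small, abundant, non-histone proteins that bind DNA or nucleosomes and alter how chromatin folds. HMGA proteins bind the minor groove of AT-rich DNA through AT-hooks, HMGB proteins bend DNA through HMG boxes, and HMGN proteins bind the nucleosome core and counter linker histone H1. Hmga2 is known as an oncofetal gene, high in embryonic mesenchyme and low in most adult tissue, and loss of it gives the small pygmy mouse.

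The promoter sequences are shown because the transfected factor belongs to a family that binds cAMP response elements, and because Hmga2, which has the probe set with the highest ratio, and Hmgb2 differ in them. The sequences are the 250 bases before the transcription start from RefSeq (GRCm38.p6), 5′ to 3′ on the gene's strand. Capitals mark CTCTCT for Hmga2 and CCAAT for Hmgb2, each on either strand, with overlapping matches counted.
Hmga2 (chr10:120476470-120476719, minus strand): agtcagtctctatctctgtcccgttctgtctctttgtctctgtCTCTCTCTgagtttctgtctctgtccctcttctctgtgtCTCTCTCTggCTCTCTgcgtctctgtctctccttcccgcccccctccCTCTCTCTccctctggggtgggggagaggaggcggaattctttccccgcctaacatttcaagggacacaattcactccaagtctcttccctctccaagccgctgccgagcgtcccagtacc
Hmgb2 (chr8:57511593-57511842, plus strand): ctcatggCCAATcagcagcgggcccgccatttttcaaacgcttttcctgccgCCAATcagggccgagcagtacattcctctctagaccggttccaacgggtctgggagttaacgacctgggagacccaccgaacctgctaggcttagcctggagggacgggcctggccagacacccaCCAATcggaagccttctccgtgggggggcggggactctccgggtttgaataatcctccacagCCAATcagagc

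Motifs were chosen after the promoters and ratios were seen, so no share of windows given here tests anything. The Hmga2 window was 70.8% pyrimidine, a share that 0.414% of all 32851 windows in the table reach. It held CTCTCT 7 times, where 23.4% of windows hold it at least once, and the share with as many was not counted. It held no CCAAT box on either strand. The Hmgb2 window held 4 CCAAT boxes, which 0.84% of windows do or exceed. They began at positions -243, -198, -73 and -11 from the start. The window of Hmgb3 held 3, a number that 2.79% of windows reach, and that of Hmgn1 held 2, while 33.8% of all windows hold at least 1. The GC box GGGCGG was present once in Hmga2, Hmgb2 and Hmgb3 and 4 times in Hmgn1. At least 1 was held by 32.7% of windows, and the share with 4 was not counted. Neither the full cAMP response element TGACGTCA, found in 1.55% of windows, nor its core TGACG, found in 17.8% and contained in the full element, was present in the windows of these 4 genes. Such matches are descriptions of these letters, and no match says only that the letters are not in this window. Of the members without a usable probe set, Hmga1 had 1 TGACG core in both of its overlapping windows, Hmgb1 had 1 in 1 of its 2 windows, and Hmgn2 had 0. A window for Hmgn3 was not used here.

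Among the 5 genes, Hmga2 alone had any probe set at least 1.5-fold apart between the arrays, and not on all of its probe sets. Its probe set with the highest mean signal over both arrays, 1422851_at, read 2967.2 with ATCE1-C-del against 1780.7 with empty vector, which is 1.67-fold higher (log2 ratio 0.74). Probe set 1450781_at read 1714.3 against 1088.3, 1.58-fold higher (log2 ratio 0.66). The third, 1450780_s_at, read 2354.9 against 2113.5, only 1.11-fold higher (log2 ratio 0.16). All 3 were therefore brighter on the ATCE1-C-del array, but by unequal amounts, and the mean of their log2 ratios, 0.52, is 1.43-fold. Which probe set stands for the gene depends on the array: 1422851_at is the brightest on the ATCE1-C-del array, but on the empty vector array 1450780_s_at is, at 2113.5 against 1780.7. The choice by mean signal therefore used the array on which Hmga2 is high, and with the probe set brightest on empty vector, an alternative added after the values were seen, Hmga2 stood at 0.16. In RNA from a whole culture, a difference in the share of cells that express a gene and a difference in RNA per cell cannot be told apart.

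The 3 probe sets of Hmga2 rest on 1 GenBank record in the platform annotation, so they are not independent sources. The suffix _s_ marks a probe set that can match several transcripts, and the probe set with this suffix was the one with the lowest ratio. Its probes' positions in the transcript were not used here. The range of the Hmga2 ratios, 0.58 on the log2 scale, was above the usual: over 539 genes with 3 probe sets above the floor on both arrays, the median range was 0.30, and 13.0% had a range at least as wide as Hmga2. The floor, a signal of 77.4, is the higher of the arrays' medians, and signals below it were raised to it, because ratios of signals close to background are unstable. A gene counts as measured where at least 1 array is above it. Over 2440 genes with at least 2 such probe sets, the log2 ratio of 1 probe set carried an SD of 0.20. This SD was taken from the difference between the 2 brightest probe sets of each gene. It holds the choice of probe set and the measurement noise of each together, pooled over all signal levels above the floor. No other error can be had from 1 array per group, and the spread between separately transfected cultures is not part of this SD.

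**Figure D1:**
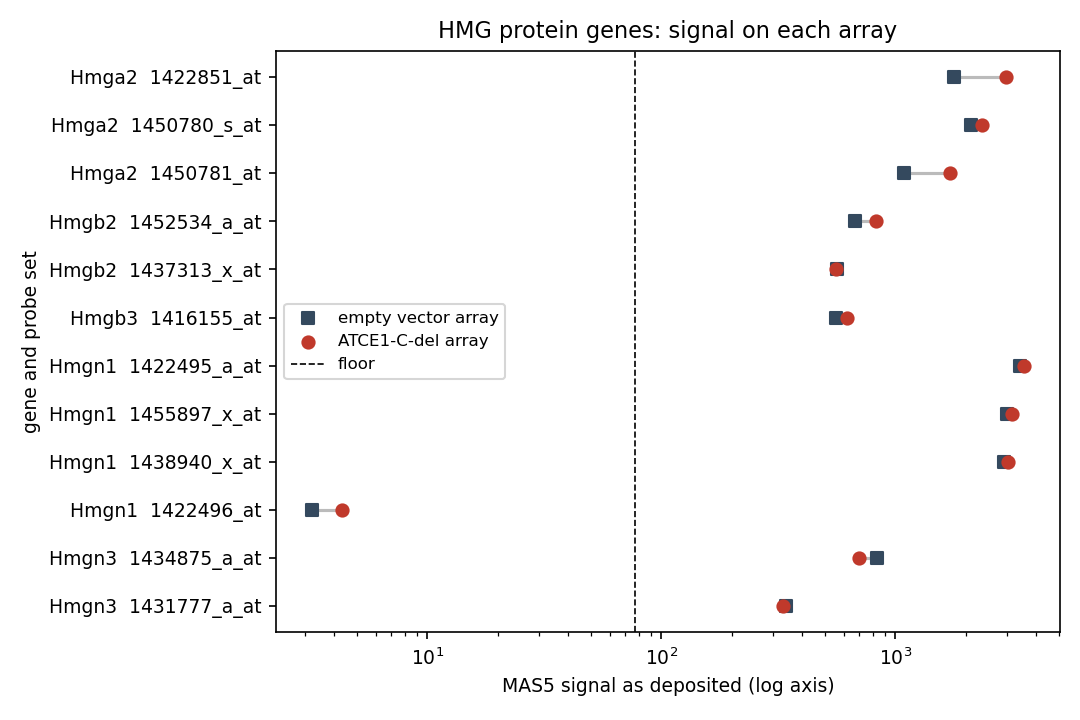
Signals of the 12 probe sets of the 5 HMG genes on the empty vector array (squares) and the ATCE1-C-del array (circles), as deposited, on a log axis; the dashed line is the floor of 77.4. The gap is widest for Hmga2 1422851_at (2967.2 against 1780.7) and 1450781_at, and Hmgn1 1422496_at lies far under the floor on both arrays.

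Read against the background, a 1.5-fold higher signal was uncommon on these arrays. Taking the brightest probe set of each gene, 0.884% of 6785 measured genes were at least 1.5-fold higher with ATCE1-C-del and 1.08% at least 1.5-fold lower, and of the 5 members 1 was higher and 0 were lower. With the probe set brightest on empty vector, 0 members were 1.5-fold higher, against 56 of all genes. At a lower threshold, a log2 ratio of 0.32, 6.63% of genes were higher and 7.91% lower, and of the members 1 was higher and 0 lower. Counted by probe set, 0.967% of the 10963 above the floor on both arrays were at least 1.5-fold higher. These include probe sets with no symbol or several symbols. Of the 11 of the members 2 were, both of them of Hmga2. Since the members were chosen with these ratios known, nothing is read from these counts. The balance of higher and lower genes depends on scaling: 60 genes were 1.5-fold higher and 73 lower as reported, 47 and 90 after scaling to array medians, and 410 and 10 after scaling to the hybridisation controls. At the lower threshold the counts were 450 and 537, then 368 and 669, then 2482 and 65. The median log2 ratio over the 5 members was 0.15 (1.11-fold), against -0.0068 over all measured genes.

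Of the 2440 genes with at least 2 probe sets above the floor on both arrays, 5 had at least 2 of them 1.5-fold higher, which is 0.205%. Besides Hmga2 these were Apcdd1, Ptgs2, Fmr1 and Skp2, named after their values were seen. The brightest probe set was lower for Fmr1 (log2 ratio -0.26) and for Skp2 (-0.42). Hmga2 was chosen with its ratios known, and its probe sets rest on 1 record, so its place among the 5 tests nothing. Its remaining probe set stood at 0.16.

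**Figure D2:**
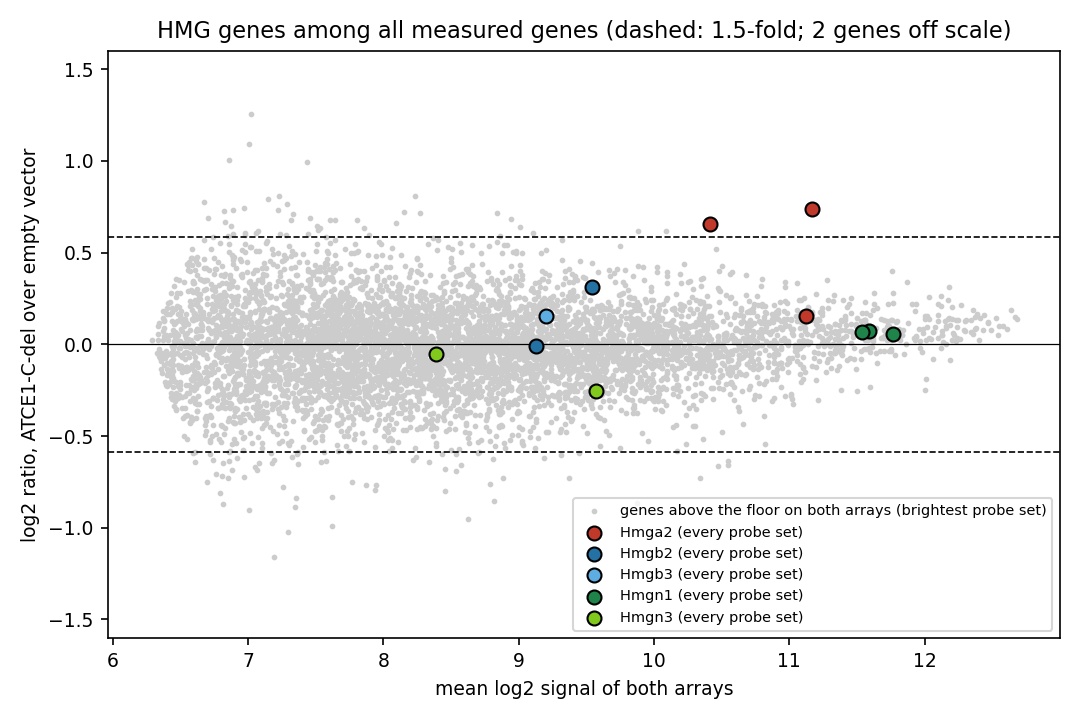
Log2 ratio (ATCE1-C-del divided by empty vector) against the mean log2 signal of both arrays, for the brightest probe set of each gene above the floor on both arrays (grey) and for every such probe set of the HMG genes (coloured); dashed lines mark 1.5-fold, and 2 genes lie off the scale. Hmga2 1422851_at at 0.74 and 1450781_at at 0.66 lie above the upper line, and every other member probe set lies between the lines.

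The HMGB genes encode proteins with paired HMG boxes and an acidic tail that bend DNA and aid the assembly of transcription and recombination complexes. Hmgb2, which is most abundant in dividing cells and in testis, had 2 probe sets with different ratios. Its brighter probe set, 1452534_a_at, read 830.0 with ATCE1-C-del against 669.4 with empty vector, 1.24-fold higher (log2 ratio 0.31). The other, 1437313_x_at, read 558.7 against 562.9 and was level (log2 ratio -0.01). The suffix _x_ marks probes that can also match other sequences, and _a_ marks probes that match several transcripts of the gene. Their difference, 0.32, is close to the SD of 0.28 for a difference between 2 probe sets of a gene. Hmgb3, a member best known in embryonic and haematopoietic progenitor cells, had a single probe set, 1416155_at. It read 621.8 against 559.3, 1.11-fold higher (log2 ratio 0.15), within the SD of 0.20 for 1 probe set.

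The HMGN genes encode nucleosome-binding proteins that loosen chromatin. Hmgn1 was the member with the most even probe sets. Probe set 1422495_a_at read 3548.6 with ATCE1-C-del against 3411.9 with empty vector, 1455897_x_at read 3157.7 against 3002.8, and 1438940_x_at read 3037.2 against 2904.7. The log2 ratios were 0.06, 0.07 and 0.06, so that all 3 were slightly higher, by 1.04-fold to 1.05-fold, and far less than the SD of 0.20, and the brightest was lower under quantile normalization and lowess. The fourth probe set of Hmgn1, 1422496_at, read 4.3 against 3.2, under the floor on both arrays, and has no ratio.

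Hmgn3, first described as a protein that binds the thyroid hormone receptor, was the only member with every probe set lower, a direction that turned on its brightest probe set when the arrays were scaled to the hybridisation controls. Its brighter probe set, 1434875_a_at, read 696.8 with ATCE1-C-del against 831.4 with empty vector, 1.19-fold lower (log2 ratio -0.25). The other, 1431777_a_at, read 329.4 against 342.2, 1.04-fold lower (log2 ratio -0.06). The first is just beyond the SD for 1 probe set and the second well within it. In all, 8 of the 11 probe sets above the floor were higher with ATCE1-C-del and 3 were lower. The 8 include 3 of Hmga2 and 3 of Hmgn1, so they are not independent. By brightest probe set 4 genes were higher and 1 lower. The median log2 ratio of all measured genes was -0.0068, and nothing is read from these counts.

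The member values depended mainly on the probe set read and on scaling to added controls. With the second-brightest probe set of each gene, as with the one brightest on empty vector, Hmga2 stood at a log2 ratio of 0.16. In both cases that probe set is 1450780_s_at. Under these settings 0 members were at least 1.5-fold higher, against 38 and 56 of all genes. The mean over the probe sets of Hmga2, at 0.52, also lay under 1.5-fold. Scaling to the hybridisation controls, RNAs added before hybridisation, shifted the median of all genes to 0.26, since 17 of the 18 control probe sets were dimmer on the ATCE1-C-del array. Hmga2 then stood at 1.01 and Hmgn3 at 0.018, so that the sign of Hmgn3 depends on the scaling. The sign of Hmgn1 also depends on scaling, at -0.03 with quantile normalization and -0.02 with lowess, and Hmgb2 stood at -0.01 with its second-brightest probe set and 0.58 with the hybridisation controls.

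**Figure D3:**
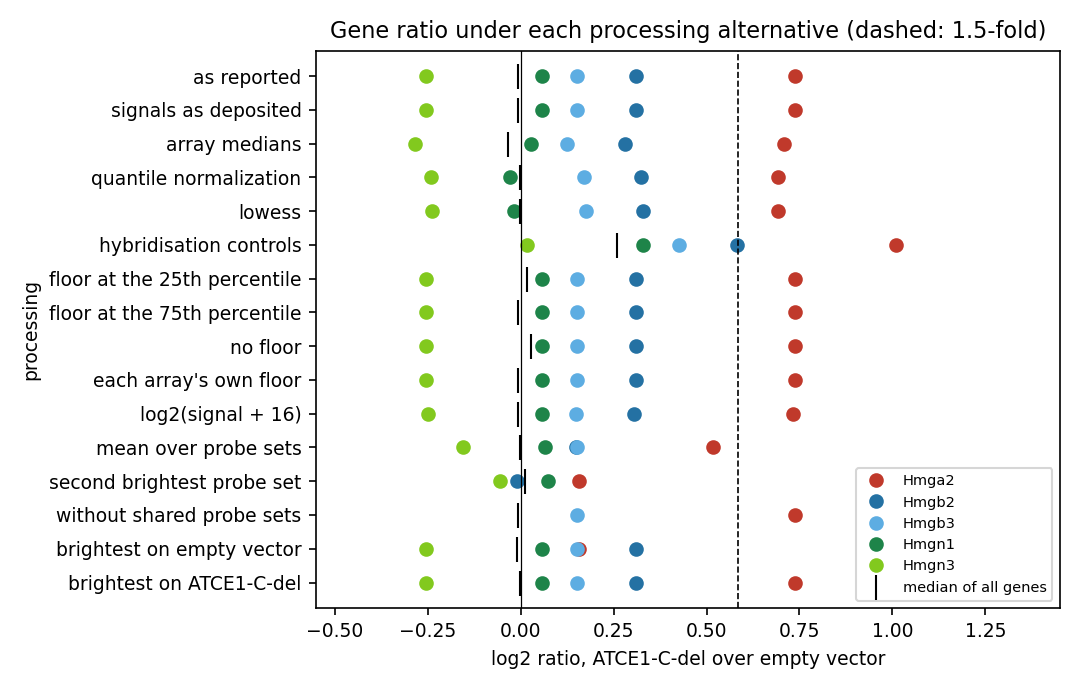
Log2 ratio of each HMG gene (coloured points) and the median of all measured genes (black ticks) as reported and under 15 processing alternatives; the dashed line marks 1.5-fold. Hmga2 lies right of the line except with the mean over probe sets (0.52) and with the probe set that is second-brightest or brightest on empty vector (0.16), and scaling to the hybridisation controls moves every gene to the right.

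Other genes of HMG biology were read from lists written by function, with the earlier results of these arrays known. Their counts of higher and lower genes go by sign alone and were not tested. The median log2 ratio of all measured genes was -0.0068. Of 23 further HMG-box and nucleosome-binding genes with a probe set, 20 were measured, 8 of them higher and 12 lower. Their median was -0.11 in log2 ratio, and 0 were 1.5-fold apart on the brightest probe set. Pbrm1, the polybromo subunit of the PBAF chromatin remodeler, was 1.48-fold lower, at 706.6 with ATCE1-C-del against 1044.5 with empty vector. Both of its further probe sets were lower too, with log2 ratios -0.20 and -0.72. Hmgxb4, an HMG-box protein of the NURF complex, was 1.24-fold higher, and Kmt2c, a histone H3 lysine 4 methyltransferase, 1.23-fold lower. Hmgn5, the remaining HMGN gene with a probe set, read 203.8 against 197.8 and was level (log2 ratio 0.04). The testis gene Hmgb4 did not reach the floor.

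Linker histones compete with HMGN and HMGA proteins for nucleosomes, and 2 of the 3 genes with a probe set were measured. H1f2 was 1.22-fold lower, at 211.3 against 256.7, and H1f10 was at least 1.04-fold higher, with the empty vector signal under the floor.

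Among 11 genes of the SET complex, in which Hmgb2 takes part, and other abundant chromatin partners, all were measured. By sign, 9 were higher and 2 lower around a median of 0.06 (log2 ratio). Those counted as higher include Set at 0.0004 and Anp32b at 0.006, which were level. Top2a, the DNA topoisomerase of dividing cells, was 1.31-fold higher and Ybx1, a DNA and RNA chaperone, 1.19-fold higher. Apex1, a base excision repair nuclease, was 1.21-fold lower on its brightest probe set, while its further probe sets were higher (log2 ratios 0.34 and 0.07). Set, named after its values were seen, was level on its brightest probe set, at 2555.6 against 2554.9, and 0.17 and 0.15 higher in log2 ratio on the others.

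Hmga2 is a well-known target of the let-7 microRNAs, and other let-7 targets and oncofetal genes are given beside it. Of 16 with a probe set, 11 were measured, 4 of them higher and 7 lower, and their median was -0.06 (log2 ratio). Of these, 0 were 1.5-fold apart on the brightest probe set. Myc was 1.29-fold higher and Ccnd1, encoding cyclin D1, 1.26-fold higher (0.40 and -0.07 in log2 ratio on its further probe sets), and the receptor gene Igf1r was 1.20-fold lower. Igf2bp1, Igf2bp3 and Igf2, oncofetal genes named here after their values were seen, stood at -0.14, -0.13 and -0.20. The further probe sets of Igf2bp3 lay between -0.13 and 0.10, on both sides of 0. Lin28a, which blocks let-7 processing, was under the floor.

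Receptors and partners of HMGB1 outside the cell had 8 of 10 genes measured, with 3 higher and 5 lower. Cxcl12, the chemokine that forms a complex with HMGB1, was 1.36-fold lower, at 984.0 against 1334.9, and its other probe set was 1.30-fold lower. Tlr2 had a log2 ratio of -0.32 at signals near the floor, 87.4 against 109.1, and Cd24a was 1.11-fold lower. The receptor gene Ager did not reach the floor, while Xpo1, a nuclear export receptor, named after its values were seen, stood at 0.09 in log2 ratio.

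Hmgb2 and Hmga2 are more abundant in dividing cells, so genes of proliferation are given beside them. Of 31 measured, 28 were higher and 3 lower by sign. Those counted as higher include Kif20a at 0.02 and Cenpf at 0.005 in log2 ratio, which were level. The 3 lower were Mki67 and Cenpe, both at -0.02, and E2f1 at -0.13. These 5 genes were named after their values were seen. The median of the 31 was 0.35 in log2 ratio, and 17 reached the lower threshold of 0.32, where 6.63% of all measured genes did. These counts move with scaling: 16 reached it after scaling to array medians, beside 5.41% of all genes, and 25 after scaling to the hybridisation controls, beside 37.1%. Cenpa, Mcm2 and Kif11 had the highest ratios, at 1.54-fold, 1.53-fold and 1.49-fold on the brightest probe set. The other probe set of Mcm2 was lower instead (log2 ratio -0.45), while those of Kif11 were higher, at 0.48 and 0.50. Hmga2 on 1422851_at lay above the highest of them, Cenpa at 0.62, and on 1450780_s_at, at 0.16, below their median. The part of cell division in the Hmga2 and Hmgb2 values was not tested.

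**Figure D4:**
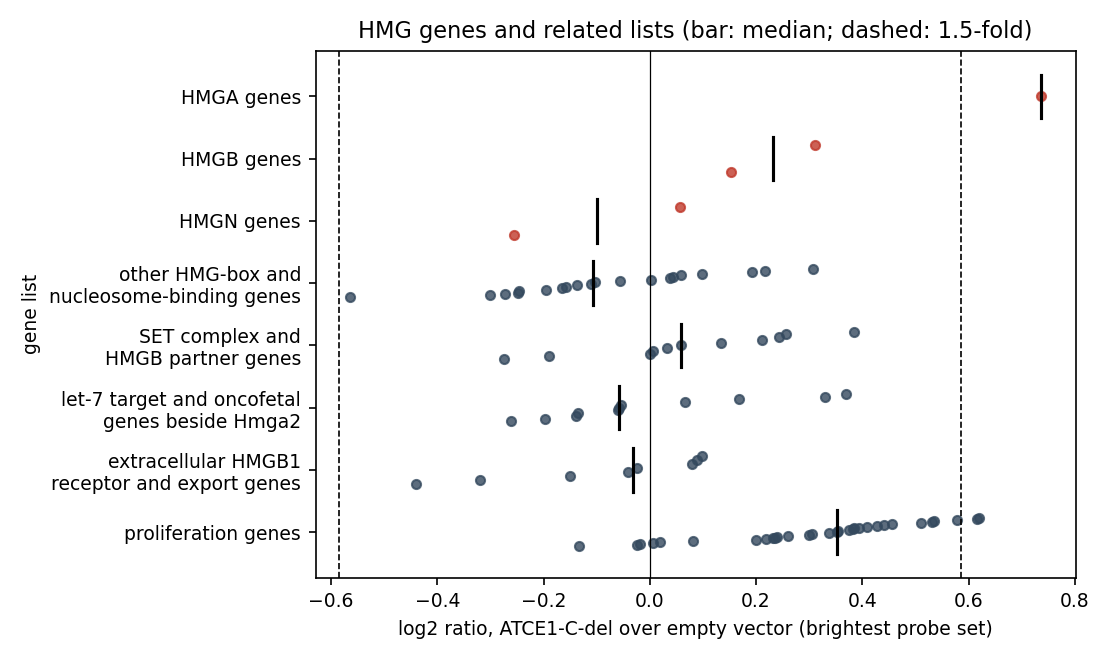
Log2 ratio (ATCE1-C-del divided by empty vector) for the brightest probe set of each gene in the HMG groups (red) and related lists (blue); black bars are list medians and dashed lines mark 1.5-fold. Hmga2, at 0.74 on 1422851_at, lies to the right of the upper line with Cenpa and Mcm2 of the proliferation genes, and the related HMG-box list is centred at -0.11.

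As a check of the cells, all 8 fibroblast markers were measured, 5 higher and 3 lower around a median of 0.06 in log2 ratio. Pdgfrb, a growth factor receptor of mesenchymal cells, was 1.36-fold lower, at 1072.2 against 1458.7, and 1.17-fold lower on its other probe set. Thy1, a surface glycoprotein, was 1.12-fold higher and S100a4, a calcium-binding protein, 1.09-fold higher. None of the 5 epithelial or 4 endothelial markers reached the floor. Of 5 macrophage markers, Cd68 was measured, at 81.5 against 50.8, at least 1.05-fold higher. Creb3l4 read 18.0 with ATCE1-C-del against 20.7 with empty vector, under the floor on both arrays, so it does not check which culture carried the insert. The trimmed means of the arrays were 250.1 in both cases, and 10963 of 22626 probe sets without controls were above the floor on both. Precision of the member values is limited by how few arrays there are.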

How the data were processed

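Gene expression was measured on 2 Affymetrix arrays, 1 per group, and samples were grouped by title or description. The authors deposited linear intensity for each probe set, which the submitters' processing notes credit to MAS5. Version, target value and detection calls were not stated there. Gene symbols came from the platform annotation, and Entrez IDs of the members matched a RefSeq table of GRCm38.p6.

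Each array was scaled by its mean after trimming 2% of probe sets at each end. The divisor was this mean relative to the geometric mean of both arrays' trimmed means, so that signals kept the deposited scale. A common floor (77.4, the higher of the arrays' medians) was applied and the log2 ratio taken. A common floor was used because separate floors can turn the sign of a ratio between them. Each gene was represented by its brightest probe set, by mean log2 signal. Differences were counted at log2 ratios of 0.32 and 0.58 (1.5-fold), with no test. A ratio with 1 signal under the floor is a lower bound, given as "at least".

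The members and lists were chosen with earlier results of these data known. Named beside the members were, per list, genes 1.5-fold apart and the 3 largest absolute ratios above the floor on both arrays; further genes were named after their values were seen. Motifs were chosen after the promoters and ratios were seen. The ratio steps were tested on simulated data. The work used pandas 2.3.3 and numpy 2.4.6 under Python 3.11.15, with statsmodels 0.14.6 for lowess.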

Additional observations from a re-analysis of the deposited data

How the results depend on the processing

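Over 15 alternatives Hmga2 stayed higher with ATCE1-C-del, between 0.16 and 1.01 in log2 ratio, and Hmgb3 stayed higher in the 14 that measured it. No floor used could turn either sign, since these signals lie above every floor. The choice of probe set could not either, since all 3 Hmga2 probe sets were higher and Hmgb3 has 1. The number of alternatives is therefore no support for the direction. Scaling to the hybridisation controls raised the members' median to 0.43 and put 4 members at or above the lower threshold of 0.32, as it did 37.1% of all genes. Leaving out probe sets that can match several transcripts measured only Hmga2 and Hmgb3, with a median of 0.44. Quantile normalization and lowess each put 2 members at or above 0.32, as they did 6.95% and 6.94% of all genes. Hmgb2 was the one added, moving from 0.310 to 0.325 and 0.328 across the cut of 0.322. The second-brightest probe set lowered the members' median from 0.15 to 0.031 over 4 members. With it, and with the probe set brightest on empty vector (added after the data were seen), 0 members reached 0.32 or 1.5-fold. In the same order, 8.9% and 6.31% of all genes reached 0.32, and 38 and 56 genes reached 1.5-fold. With the mean over probe sets 0 members passed 1.5-fold, beside 48 of all genes.

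Counts over all genes depended on the floor and scaling. At least 0.32 higher in log2 ratio were 2482 genes with the hybridisation controls, 1503 with the floor at the 25th percentile, 136 at the 75th, 2963 with no floor and 234 with the second-brightest probe set. At least 0.32 lower were 65, 1070, 178, 1915 and 245 in the same order. At least 1.5-fold higher were 410, 636, 9, 1916 and 38, and at least 1.5-fold lower 10, 279, 18, 1026 and 48, with 47 under the mean over probe sets. The floor and the probe set choice also change how many genes are counted, and further causes were not tested. With 1 array in each group, no replicate could be left out.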

Other observations

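Among the further HMG-box and nucleosome-binding genes with at least 2 measured probe sets, Sox4, Tcf7l1, Pbrm1, Hbp1 and Bbx had every one lower with ATCE1-C-del. Supt16 had both higher, and Smarce1, Sox9 and Ubtf had them on both sides of 0. They were singled out after their values were seen, and the share of all genes with every probe set on 1 side was not counted. Several of their ratios lie within the SD of 0.20 for 1 probe set. Scaling to the hybridisation controls shifts the median of all genes to 0.26, and these signs were not read under it. Nothing is read from these directions. The 5 probe sets of Sox4, which encodes an HMG-box factor of mesenchymal and progenitor cells, had log2 ratios of -0.19, -0.03, -0.20, -0.43 and -0.44 from the brightest to the dimmest. The brightest read 2195.8 against 2512.9 with empty vector. Tcf7l1, an HMG-box effector of Wnt signalling, had log2 ratios of -0.10 and -0.65, the latter from signals of 182.7 against 285.9. Hbp1, an HMG-box repressor, had log2 ratios of -0.27, -0.19 and -0.14, and those of Bbx were -0.14, -0.30 and -0.04. Supt16, a subunit of the histone chaperone FACT, was higher on both of its probe sets, at 0.10 and 0.52.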
